A study of Mus musculus with 4 samples.

Results

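The genes described are Plau, Plaur, Plat, Plgrkt, Serpinb2, Serpine2, Serpinb6a, Serpinf1 and F3, which act in or beside the plasminogen activation system. They are 9 of the 54532 genes listed in both deposited count tables, and were found by their gene symbols. The set was built around Plau and Serpinb2, which the study names from these same libraries, so the differences of these 2 genes between treatments are given as a description and are not independent evidence. The other members were also chosen with earlier results of these data known, so their differences are likewise a description. All 9 passed the minimum of 10 counts summed over the 4 libraries and are among the 13811 protein-coding genes tested. The cells were primary microglia, the resident macrophages of the brain, from cortical mixed glial cultures of newborn male CD1 mice, from which the astrocyte layer was removed with trypsin before RNA extraction. They were kept in serum-free medium with IL-34, TGFβ2, GM-CSF and cholesterol and treated for 24 h with 1 µM epigallocatechin gallate (EGCG), a flavan-3-ol of green tea, or with the DMSO vehicle. Each treatment had 2 libraries of poly-A RNA from independent biological replicates, and vehicle and EGCG of one replicate share a table, so every library is named by its treatment and replicate number. How many animals went into a culture is not given in the sources used here.

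Plasmin is a serine protease that dissolves fibrin, cleaves matrix proteins and activates other proteases and growth factors. It is made from plasminogen by urokinase (Plau) or tissue plasminogen activator (Plat). Urokinase acts at the cell surface when bound to its receptor (Plaur), and Plgrkt is a membrane protein that binds plasminogen itself. Serpins are inhibitors that trap their target protease in a covalent complex. Serpinb2 (plasminogen activator inhibitor 2) inhibits urokinase, Serpine2 (protease nexin 1) inhibits thrombin and plasminogen activators, Serpinb6a is an intracellular protease inhibitor, and Serpinf1 (pigment epithelium-derived factor) has the serpin fold but does not inhibit proteases. F3 (tissue factor) is the receptor of factor VII and starts coagulation. In the brain, urokinase and its receptor are known from activated microglia, and Plat from neurons as well.

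In build GRCm38, Plau (ENSMUSG00000021822) lies on chromosome 14 from 20836660 to 20843385, Plaur (ENSMUSG00000046223) on chromosome 7 from 24462484 to 24475968, Plat (ENSMUSG00000031538) on chromosome 8 from 22757727 to 22782844, Serpinb2 (ENSMUSG00000062345) on chromosome 1 from 107511423 to 107535478 and F3 (ENSMUSG00000028128) on chromosome 3 from 121723537 to 121735048, all on the plus strand. On the minus strand lie Serpine2 (ENSMUSG00000026249, chromosome 1, 79794197 to 79861180), Serpinf1 (ENSMUSG00000000753, chromosome 11, 75409769 to 75422701), Serpinb6a (ENSMUSG00000060147, chromosome 13, 33917918 to 34002794) and Plgrkt (ENSMUSG00000016495, chromosome 19, 29348599 to 29367390). These are whole-gene positions, and how reads were assigned to genes is not given in the sources used here.

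The 250 bases before the transcription start were read from the RefSeq promoter table (GRCm38.p6), which held 7 of the 9 genes, all except Plau and Plat. Shown are the 3 of them in which the motif TGANTCA was found. It is a loose form of TGA(C/G)TCA, the consensus bound by AP-1 (dimers of Fos and Jun proteins), and a match TGAATCA fits the loose form only. Each match is in capitals, and the sequence runs 5′ to 3′ on the plus strand.
Serpinb2, chr1:107511173-107511422: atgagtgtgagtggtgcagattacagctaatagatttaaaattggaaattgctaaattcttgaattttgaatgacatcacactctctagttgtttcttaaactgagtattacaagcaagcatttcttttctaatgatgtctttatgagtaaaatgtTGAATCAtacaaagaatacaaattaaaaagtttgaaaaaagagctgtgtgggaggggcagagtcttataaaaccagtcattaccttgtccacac
Plaur, chr7:24462233-24462482: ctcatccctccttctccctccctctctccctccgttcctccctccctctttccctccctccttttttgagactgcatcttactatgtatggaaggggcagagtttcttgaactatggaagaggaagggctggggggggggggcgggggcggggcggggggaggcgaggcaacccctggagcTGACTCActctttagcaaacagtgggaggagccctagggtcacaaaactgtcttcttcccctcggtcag
F3, chr3:121723287-121723536: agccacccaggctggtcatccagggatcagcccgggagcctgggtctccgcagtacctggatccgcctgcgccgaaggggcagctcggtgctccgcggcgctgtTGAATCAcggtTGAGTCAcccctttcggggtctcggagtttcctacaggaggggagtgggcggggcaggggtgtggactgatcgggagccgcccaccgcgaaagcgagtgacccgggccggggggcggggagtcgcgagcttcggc
The match in Serpinb2, TGAATCA, lay at -94 to -88 from the start shown, where -1 is the base before it. From a second start of Serpinb2, which is not shown, the match lay at -181 to -175. The match in Plaur, TGACTCA, lay at -69 to -63. F3 held a pair of matches, TGAATCA at -146 to -140 and TGAGTCA at -135 to -129. The motif was found in 3 of the 7 members. Counted by promoter, on either strand, it was in 4 of their 9 and in 6.75% of all 32851 of the same length. Serpinb2 also held the TATA box TATAAA, at -29 to -24 from the start shown, and none of the other members did. This gave 2 of the 9 promoters, both of Serpinb2, against 12.4% of all promoters. The GC box GGGCGG was found in 5 of the 7 members, Serpine2, F3, Plaur, Serpinb6a and Plgrkt, and in neither Serpinb2 nor Serpinf1. This gave 5 of the 9 promoters, against 32.7% of all promoters. The antioxidant response element TGACNNNGC was found at 1 of the starts of Serpinb6a (10.2% of all promoters), and a consensus of NF-kB in none of the 7 (7.25%). The motifs were chosen after the sequences were seen, and a match of letters does not show that a factor binds there.

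The members covered a wide range of levels in these cells. On the RPKM scale, which divides by gene length and so allows genes to be compared, Plau had a mean of 350.5 over the 4 libraries and ranked 97 among the 13811 genes tested. Plaur had a mean of 125 RPKM and ranked 326. Serpinb6a followed at 36.8, Plgrkt at 18.3 and Serpinb2 at 15.9 RPKM. Serpine2 (6.61), F3 (4.76) and Serpinf1 (4.0) were lower, and Plat was at 0.146. The order from Plau to Plaur to the next member held in every library, while Plgrkt and Serpinb2 changed places, with Serpinb2 at 28.7 against 17.2 RPKM for Plgrkt in Vehicle replicate 1 and 7.40 against 18.8 in EGCG replicate 2. The highest value of Serpine2 (7.47 RPKM) lay within the range of F3 (1.53 to 8.16), so these neighbours were not separated. The plot of CPM (read counts scaled to a common, TMM-normalized library size) shows that the replicates differed more than the treatments for Plau, Plaur, Serpinb2 and F3.

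**Figure D1:**
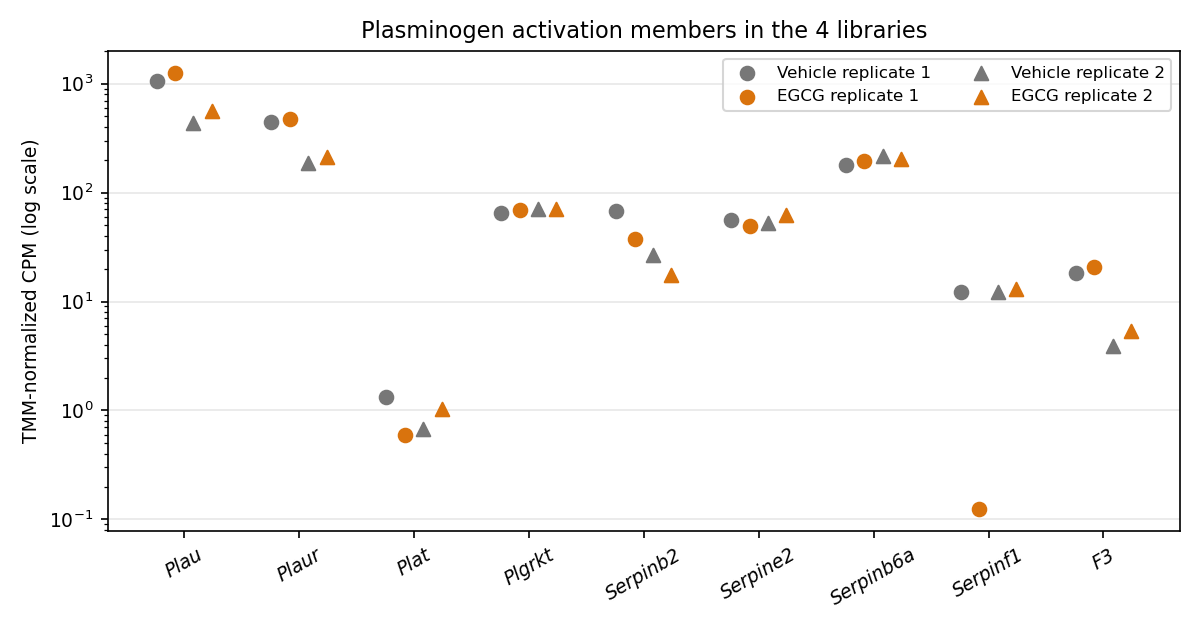
Normalized CPM of the 9 genes (vertical log axis) in each of the 4 libraries, with vehicle in grey, EGCG in orange, replicate 1 as circles and replicate 2 as triangles, 1 point per library. Plau was the highest of the 9 in every library, at 432 to 1265 CPM, and Serpinf1 had a single low point, 0.125 CPM in EGCG replicate 1.

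Plau, the activator urokinase, was at 1060.4 CPM in the vehicle and 1265 in the EGCG cultures of replicate 1, and at 432 and 560.4 in those of replicate 2. It was higher with EGCG within each replicate, by 1.19 and 1.30 times, yet both libraries of replicate 1 were above both of replicate 2, so the treatment groups overlapped (746 ± 444 CPM in vehicle and 913 ± 498 in EGCG, SD, n = 2). A fit of treatment alone put the log2 difference at 0.29 (SE 0.64, unadjusted p = 0.672, adjusted p = 1.00, both from edgeR's quasi-likelihood test over all genes). With the replicate number as a block it was 0.31 with a standard error of 0.06 (unadjusted p = 0.00409 and adjusted p = 0.995 in edgeR, and adjusted p = 0.0207 in DESeq2 with the block).

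Plat, the other activator, was the member with the lowest level per gene length. Replicate 1 gave 44 counts with vehicle and 19 with EGCG, and replicate 2 gave 25 and 57. These are log2 differences of -1.11 and 0.56 between EGCG and vehicle, in opposite directions (EGCG replicate 1 was also the library with low fibroblast markers, given with Serpinf1, and their part in the value of Plat was not tested), and the blocked estimate of -0.27 had a 95% interval from -1.68 to 1.15. No difference of either sign was detectable in these libraries. Per base of gene length, the mean of Plat (0.146 RPKM) lay at percentile 14.2 of the genes tested, against 99.3 for Plau.

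Plaur, the urokinase receptor, followed the same order of libraries as Plau. Its levels in replicate 1 were 440.6 CPM with vehicle and 471 with EGCG, and in replicate 2 they were 188 and 213. The higher values with EGCG amounted to 1.07 times in replicate 1 and 1.13 times in replicate 2, with a blocked log2 fold change of 0.14 (95% interval 0.0049 to 0.27, unadjusted p = 0.0445, adjusted p = 0.995 in edgeR). The blocked DESeq2 fit gave an unadjusted p of 0.0805. Plgrkt, the plasminogen receptor, was almost level, with 65.3 CPM in vehicle and 69.5 in EGCG for replicate 1, and 71.2 and 71.5 for replicate 2. Its blocked log2 difference was 0.05 with a 95% interval from -0.10 to 0.20, so it showed neither the replicate difference nor a detectable treatment difference.

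Serpinb2, the inhibitor of urokinase, was the member with the smallest p. Vehicle cultures of replicate 1 had 67.4 CPM and EGCG cultures 37.7, while those of replicate 2 had 26.8 and 17.4. Within each replicate it was lower with EGCG, at 0.56 and 0.648 times the vehicle level, while EGCG replicate 1 was still above Vehicle replicate 2. Fitted without the block, the log2 fold change was -0.78 with a standard error of 0.63 (unadjusted p = 0.284 in edgeR). With the replicate block it was -0.73 with a standard error of 0.07 (unadjusted p = 0.000129, adjusted p = 0.583 in edgeR, and adjusted p = 0.00116 in DESeq2 with the block). Serpinb2 shares 291 exon bases on the same strand with Serpinb10, whose counts were 87 with vehicle and 100 with EGCG in replicate 1 and 1 and 0 in replicate 2, so reads of the shared stretch cannot be assigned with certainty.

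Serpine2, the other inhibitor of plasminogen activators among the members, moved in opposite directions in the replicates. It went from 55.8 CPM with vehicle to 49.2 with EGCG in replicate 1 and from 52.2 to 61.9 in replicate 2. The blocked log2 difference was 0.04 with a 95% interval from -0.25 to 0.32. A stretch of 270 bases of its transcripts matched Dynlt1c and Dynlt1f at 90% identity, which could split some reads. Serpinb6a went from 179 to 195 CPM in replicate 1 and from 218 to 205 in replicate 2. Its blocked log2 difference was 0.02 (95% interval -0.15 to 0.18), and the treatment-only estimate of 0.01 changed sign under 3 other normalizations or filters. Serpinb6a overlaps exons of Nqo2, Ripk1 and an antisense gene on the opposite strand. The libraries were strand-specific, and whether the counting used strand is not given in the sources used here. Serpinb6a is also 90.2% identical to Serpinb6b over 447 bases. Longer matches, of 1092 bases, were to Gm5749 (90.3% identical) and Gm8436 (90.6%), so some reads of these genes may be uncertain.

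F3, the start of the coagulation cascade, had the largest ratio between replicates in vehicle, 4.71 times. It also differed in EGCG, where Serpinf1 had the larger ratio. Replicate 1 had 18.3 CPM with vehicle and 20.6 with EGCG, against 3.87 and 5.33 in replicate 2, so both libraries of replicate 1 lay above both of replicate 2. Within replicates it was 1.13 and 1.38 times as high with EGCG, a blocked log2 fold change of 0.31 (95% interval 0.014 to 0.599, unadjusted p = 0.0431, adjusted p = 0.995 in edgeR). In DESeq2 with the block its unadjusted p was 0.206.

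The counts of called members depend on how the replicates enter the model. When treatment alone was fitted by edgeR, 0 of 9 members had an unadjusted p under 0.05, where 0.116% of the genes tested (16) did, and 0 had an adjusted p under 0.1, where 0% of the genes did (DESeq2 without the block called 1 gene, which is not a member). With the replicate block, 4 of 9 members had an unadjusted p under 0.05, against 3.21% of all genes tested (444). Of these, 3 were higher with EGCG (Plau, Plaur and F3), where 2.12% of the genes were, and 1 was lower (Serpinb2), where 1.09% were. None passed an adjusted p under 0.1 in that fit, as did 0.00724% of the genes tested, a single gene. DESeq2 with the block gave Plau and Serpinb2 an unadjusted p under 0.05 (1.11% of genes) and an adjusted p under 0.1 (0.0507% of genes, 7 in all). Apart from Plau and Serpinb2, around which the set was built, the blocked edgeR call covers 2 of the other 7 and the blocked DESeq2 call 0. The other 7 were also chosen with earlier results of these data known, so none of these counts of members is independent evidence. The members with CPM that do not overlap between the treatment groups numbered 0 of 9, against 11.9% of the genes tested, and those that moved the same way in both replicates numbered 5 of 9, against 50.6%, close to the share of all genes. The smallest two-sided p that an exact permutation test can reach with 2 unpaired libraries per group is 0.333. Swaps within replicate pairs allow fewer arrangements still, so every p-value here is a model's.

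**Figure D2:**
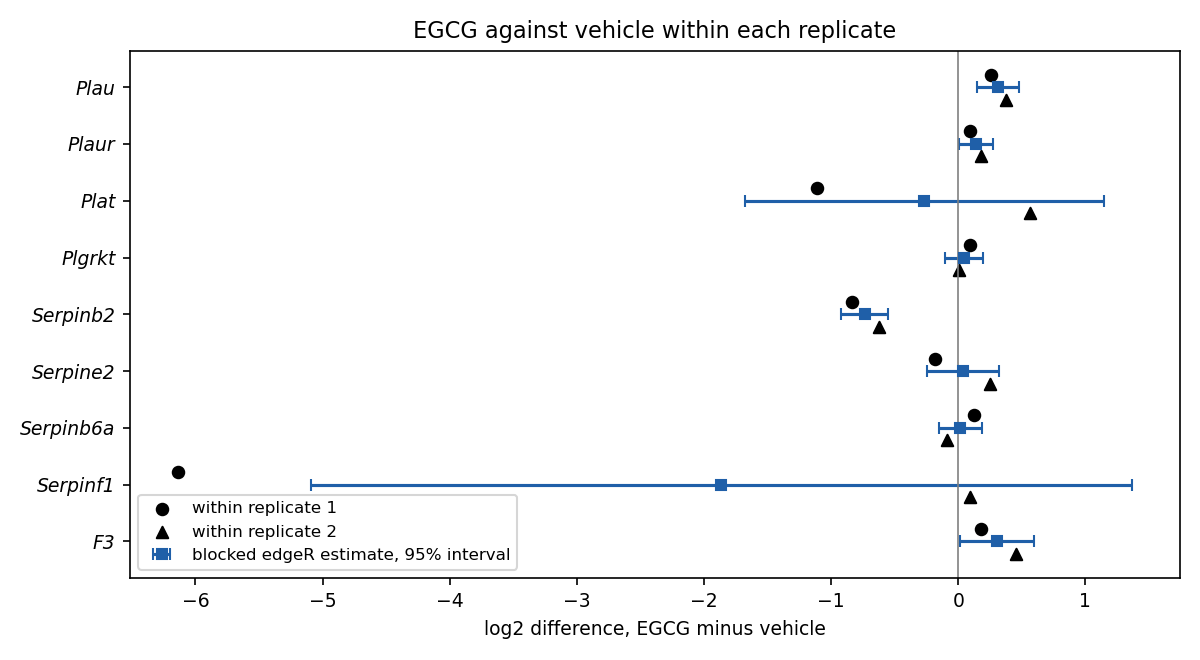
Log2 difference between EGCG and vehicle (horizontal axis) for each gene, within replicate 1 (circles) and replicate 2 (triangles), with the blocked edgeR estimate as a square and its 95% interval as a bar. The intervals of Plau, Plaur, F3 and Serpinb2 lay on one side of 0, while those of Plat and Serpinf1 were the widest and spanned 0.

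The same 4 genes had the largest differences between replicates that both treatments showed. In vehicle, replicate 1 was above replicate 2 by 2.45 times for Plau, 2.34 for Plaur, 2.51 for Serpinb2 and 4.71 for F3. With EGCG the ratios were 2.26, 2.21, 2.17 and 3.87. Plgrkt (0.917 and 0.973), Serpinb6a (0.82 and 0.95) and Serpine2 (1.07 and 0.795) were within 1.3 times of equal in both treatments. What separated the replicates is not given by the labels, and its part in the treatment differences was not tested.

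The ratio of Plau to Serpinb2 within a library is given as a description, without a test. The pair was chosen after it was known to move in opposite directions in these libraries, so a higher ratio with EGCG follows from the choice. Per base of gene length, Plau exceeded Serpinb2 by 15.6 times in Vehicle replicate 1 (95% interval 15.0 to 16.3, which covers counting error only) and by 15.99 times in Vehicle replicate 2 (15.0 to 17.1). It exceeded it by 33.3 times in EGCG replicate 1 (31.5 to 35.3) and by 32.0 times in EGCG replicate 2 (30.01 to 34.1). The EGCG libraries were at 2.13 times the vehicle ratio in replicate 1 and 2.00 times in replicate 2. No normalization enters a ratio within one library. These are transcripts, and neither protein nor plasmin activity was measured in the files.

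Serpinf1 differed from the other members in that a single library set its value. Both vehicle libraries (12.3 and 12.2 CPM) and EGCG replicate 2 (13.03 CPM) were close to each other, but EGCG replicate 1 was at 0.125 CPM, where 4 reads were counted against 405 in the vehicle library of the same replicate. On the log2 scale, EGCG minus vehicle was -6.14 for replicate 1 and 0.09 for replicate 2. The blocked log2 fold change of -1.86 had a 95% interval from -5.09 to 1.37 (unadjusted p = 0.201 in edgeR). Without EGCG replicate 1 the treatment-only log2 fold change was 0.09 (unadjusted p = 0.818), and without EGCG replicate 2 it was -6.61 (unadjusted p = 0.00024).

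Transcripts of fibroblast and mural cells moved with Serpinf1 in the same library. Of 10 such markers, 9 had a log2 difference below -1 in replicate 1 and 0 did in replicate 2. Of all 13811 genes tested, 753 did in replicate 1 and 205 in replicate 2. The summed level of the 10 markers went from 477 to 6.33 CPM of the unnormalized totals in replicate 1 and from 169 to 191 in replicate 2. Col1a1, a chain of fibrillar collagen, went from 3962 counts with vehicle to 4 with EGCG in replicate 1, and from 1344 to 2040 in replicate 2. Raw counts are not scaled to depth, and the EGCG library of replicate 2 was 1.51 times as deep as its vehicle library. After normalization the log2 difference of Col1a1 was -9.42 in replicate 1 and 0.01 in replicate 2. In EGCG replicate 1, 1 of the 10 markers, Lum, was at 0 counts and 4 were at 3 counts or fewer. Pdgfra did not fall, at 141 counts there against 122 in the vehicle library of the same replicate. Astrocyte markers moved in part with them, since 3 of the 7 tested had a log2 difference below -1 in replicate 1 and 0 in replicate 2. These were Gja1 (160 to 1 counts in replicate 1, 66 to 107 in replicate 2), Aqp4 (20 to 0 and 5 to 12) and Gfap (12 to 2 and 22 to 47), while Aldh1l1 went from 339 to 383 and from 330 to 506. Normalized log2 differences in replicate 2 were 0.10 for Gja1, 0.52 for Aqp4, 0.47 for Gfap and 0.03 for Aldh1l1. The 10 microglia markers were between 5676 and 6891 CPM in sum, with none at 0. In bulk RNA fewer cells of a type and less RNA per cell cannot be told apart, and the part of residual stromal or astrocyte cells in the difference of Serpinf1 was not tested. Among the other members, Plat was also lowest in EGCG replicate 1, with 19 counts against 44 in the vehicle library, while Plgrkt and Serpine2 were at 2228 and 1576 counts there. Chosen after their values were seen, other serpin and plasmin pathway genes with the same pattern included the collagen chaperone Serpinh1, with 595, 2, 182 and 396 counts, and the collagen receptor Mrc2, with 183, 2, 60 and 128. In each case the first 2 values are vehicle and EGCG of replicate 1 and the last 2 those of replicate 2. The normalized log2 differences in replicate 2 were 0.53 for Serpinh1 and 0.49 for Mrc2.

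**Figure D3:**
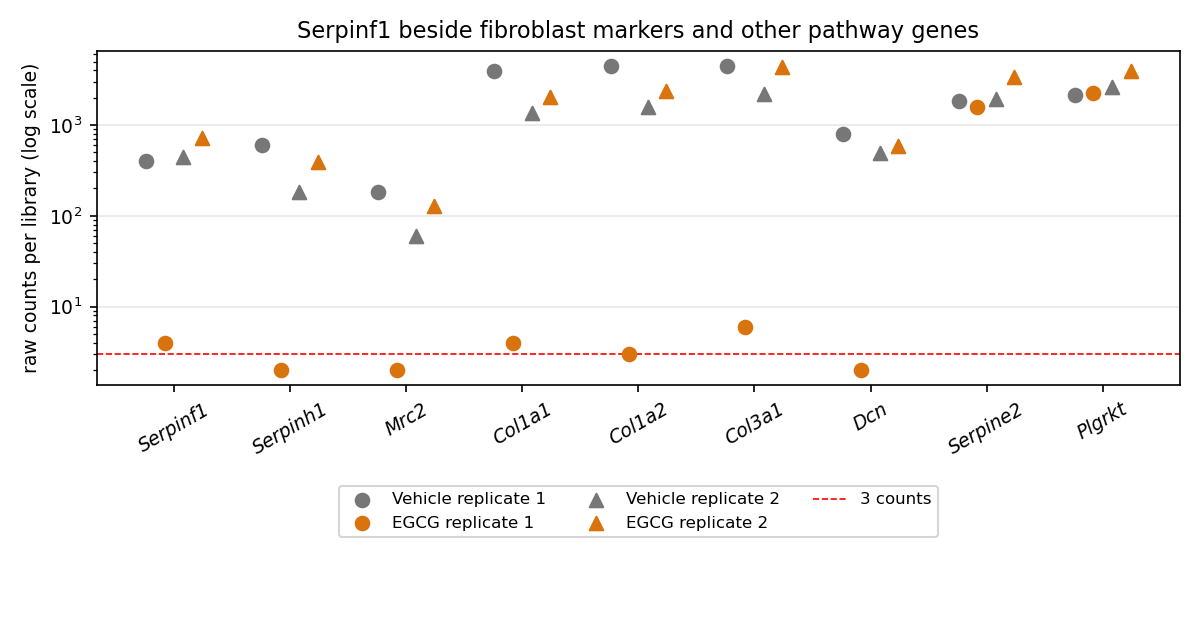
Raw counts per library (vertical log axis) of Serpinf1, other pathway genes with the same pattern, 4 of the 10 fibroblast and mural markers, and Serpine2 and Plgrkt for contrast. Each library has 1 point, with a dashed line at 3 counts, and Pdgfra, a marker that did not fall, is not among the 4. The counts are not scaled to library depth. EGCG replicate 1 (orange circles) lay at 2 to 6 counts for the first 7 genes, far below the other libraries, and at 1576 and 2228 counts for Serpine2 and Plgrkt.

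The wider pathway was described with lists of other fibrinolysis genes, coagulation genes and serpins. Of 19 fibrinolysis genes, 13 were tested. Plasminogen itself (Plg) had 1, 0, 0 and 0 counts, so the substrate of the activators was at or below the limit of 3 counts in every library, as were Cpb2, Vtn, Hrg, F12 and F13b at 0. In the edgeR fit of treatment alone 0 of the 13 had an unadjusted p under 0.05, against 0.116% of all genes tested. With the replicate block 1 did, against 3.21% of all genes. This was Thbd, which was lower with EGCG, and a single call among 13 genes is not read as a result about the list. Thbd (thrombomodulin, which turns thrombin towards activating protein C) went from 45 to 14 counts in replicate 1 and from 52 to 46 in replicate 2, with log2 differences of -1.54 and -0.73 and a blocked unadjusted p of 0.0369 in edgeR (adjusted p = 0.995). The most abundant of the list per gene length were the plasminogen-binding surface proteins Anxa2 and Eno1 and the clearance receptor Lrp1, which takes up complexes of proteases with serpins. Their mean levels were 85.4, 76.3 and 54.0 RPKM and their blocked log2 differences 0.05, 0.12 and -0.06. The list's median blocked log2 difference was -0.06, against 0.015 over all genes tested.

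Of 25 coagulation genes, 14 were tested and 0 had an unadjusted p under 0.05 in edgeR with either model. Of all genes tested, 16 (0.116%) did with treatment alone and 444 (3.21%) with the replicate block. Prothrombin (F2) had 1 count in all, and the 3 fibrinogen chains (Fga, Fgb and Fgg) had 0. The most abundant were Procr, the receptor of protein C, its cofactor Pros1, and Tfpi, the inhibitor of tissue factor, at 47.3, 39.8 and 11.2 RPKM. Procr showed the replicate difference of F3, with 174 and 167 CPM in vehicle and EGCG of replicate 1 against 21.1 and 21.6 in replicate 2. Tfpi did not, at 58.4 to 62.6 CPM in the 4 libraries. The list's median blocked log2 difference was 0.08.

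Beside the members, 57 protein-coding serpin genes were listed, of which 17 were tested. Fitting treatment alone in edgeR gave 0 with an unadjusted p under 0.05, against 0.116% of all genes tested. With the replicate block 1 had it, against 3.21% of all genes, and a single call among 17 is not read as a result about the list. This was Serpinb6b, a relative of Serpinb6a, at a log2 difference of 0.15 (unadjusted p = 0.0487, adjusted p = 0.995 in edgeR). It went from 26.8 to 30.8 CPM in replicate 1 and from 42.2 to 45.4 in replicate 2, and shares sequence with Serpinb6a, so reads may be split between them. Serpinb9b and Serpinb8, intracellular serpins, were among the 3 most abundant with it, at 26.7 and 14.3 RPKM. Their blocked log2 differences were 0.19 and 0.04. The median over the 17 was 0.15.

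**Figure D4:**
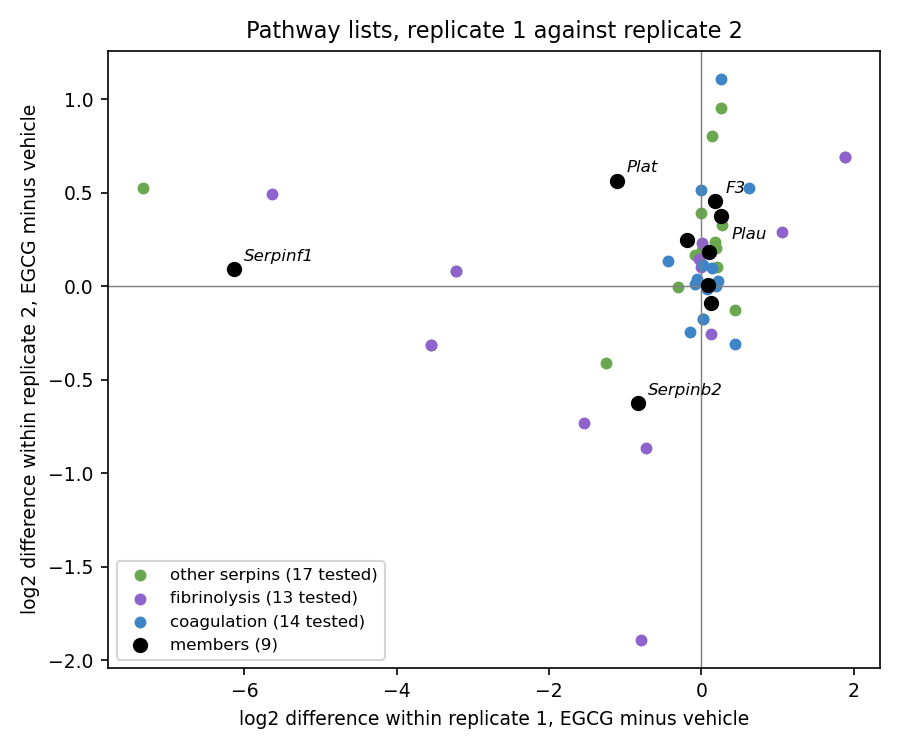
Log2 difference between EGCG and vehicle within replicate 1 (horizontal axis) against that within replicate 2 (vertical axis), 1 point per gene, for the 9 members in black and the tested genes of the 3 lists in colour, where a gene of several lists takes the colour of the last drawn. Serpinb2 lay below 0 and Plau and F3 above 0 on both axes, while Serpinf1 lay at -6.14 and 0.09.

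The libraries held 33752397 to 54909854 counts on genes, so 3 counts correspond to 0.0546 to 0.0889 CPM of the unnormalized totals. The EGCG library was deeper than the vehicle library 1.02 times in replicate 1 and 1.51 times in replicate 2. Marker sums of other cell types, in the same unit, were 14.4 to 21.9 for astrocytes, 119 to 152 for the oligodendrocyte lineage and 73.8 to 178 for endothelium. Neuron markers summed to 18.4 and 16.5 in vehicle and EGCG of replicate 1 and to 1.21 and 1.77 in replicate 2.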

How the data were processed

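Poly-A RNA of 4 libraries was analysed. Per the submitters' processing notes, reads were aligned with HISAT2 to GRCm38.p6. The counting program and annotation are not given in the sources used here. Raw, unnormalized read counts per gene were deposited by the authors in 1 table per replicate with a vehicle and an EGCG column, and gene lengths. Tables were joined on the Ensembl identifier (54532 genes). Loci assembled for only one table (697 and 329) were not used. Treatments came from the sample labels, and the paper's supplementary file ties sample titles to tables.

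In R 4.3.3, edgeR 4.0.16 (TMM, quasi-likelihood F test, two-sided) was run on the 13811 protein-coding genes whose counts over all libraries reached 10, fitting treatment alone. A fit that adds the replicate block was run beside it, as was DESeq2 1.42.0. The number is taken to pair libraries because both treatments of a replicate share a table. Differences between replicates correlated between treatments (r = 0.64 across 13811 genes, which are not independent). Thresholds were an unadjusted p under 0.05 and a Benjamini-Hochberg adjusted p under 0.1. Standard errors were the log2 fold change divided by the square root of F. Per-library log2 differences used a prior count of 2. RPKM used the deposited gene lengths. Near copies were sought with BLAST 2.17.0 (90% identity over 200 bases).

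Intervals of the treatment-only fits include the variation between libraries. Those of the blocked fits leave out the difference between replicates. With 4 libraries little is then left to estimate the remaining variation, and the fits share information on it between genes. Intervals of ratios and the floor of 3 counts cover counting error only. The members and lists were chosen with earlier results of these data known. Named genes are all members, list genes with an unadjusted p under 0.05, the 3 most abundant per list, and the 3 most like Plau and Serpinb2. Others are marked. The promoters are from RefSeq, and motifs were searched on both strands.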

Additional observations from a re-analysis of the deposited data

How the results depend on the processing

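With treatment as the only term, 16 genes had an unadjusted p under 0.05. The count was 444 with the replicate block in edgeR, 153 with the replicate block in DESeq2, 3 with 10 counts required in every library, 6 with filterByExpr, 35 with all biotypes, and 8 to 134 with each library left out. At an adjusted p under 0.1 the count of 0 became 1 with the replicate block in edgeR, 1 in DESeq2 and 7 in DESeq2 with the replicate block. Of the 9 members, 0 had an unadjusted p under 0.05, against 4 with the replicate block in edgeR, 2 with it in DESeq2, and 0 to 1 with each library left out, the 1 being Serpinf1 without EGCG replicate 2. At an adjusted p under 0.1 the 0 members became 2 with the replicate block in DESeq2. The fold change of Serpinb6a turned to -0.0054 with upper-quartile factors, -0.0232 with total counts only and -0.0045 with filterByExpr, all near 0. The cause of these changes was not tested, except that the block takes out the difference between replicates.

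With each library left out, the unblocked log2 fold change ranged from -0.41 to 1.08 for Plau, -0.56 to 0.86 for Plaur, -0.80 to 0.26 for Plat, -0.015 to 0.093 for Plgrkt, -1.44 to 0.0369 for Serpinb2, -0.16 to 0.20 for Serpine2, -0.13 to 0.14 for Serpinb6a, -6.61 to 0.0855 for Serpinf1 and -1.05 to 1.74 for F3, and 16 of these 36 values had the opposite sign. In these fits the lone library of a group is assumed to vary like the other group. They also leave a replicate with a single treatment, so the values and their signs take in the difference between replicates. Plau, Plaur, F3 and Serpinb2 each moved the same way within both replicates. Serpinf1 has no value with 10 counts required in every library. With 2 libraries per group, only large or steady differences can be seen, and Plat rests on 19 to 57 counts per library.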

Other observations

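The genes whose pattern over the 4 libraries was most like that of Plau, by the root mean square distance of centred log2 CPM among 11620 genes with at least 10 counts in every library, were Pde7b (0.024), a cyclic AMP phosphodiesterase, Ccne1 (0.033), which encodes cyclin E1, and Rgs1 (0.039), a regulator of G protein signalling. Rgs1 was at 570.4, 638, 233 and 292 CPM in Vehicle replicate 1, EGCG replicate 1, Vehicle replicate 2 and EGCG replicate 2. The genes most like Serpinb2 were less close, namely Twist2 (0.058), a transcription factor, Cep295nl (0.117) and the phosphatase Ptpn14 (0.117). All 3 were at 2.47 CPM or lower, with Twist2 at 0.884, 0.499, 0.355 and 0.218 CPM in the same order. The pattern is mostly the difference between replicates, which both treatments share, and with 4 points it is a description only.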
